A study of Homo sapiens with 62 samples.

Results

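Messenger RNA of the nuclear genes for respiratory complex I was described in 5 human cell lines before and after engineered loss of a gained chromosome arm. The members described are 38 protein-coding genes whose symbol is NDUFA, NDUFB, NDUFC, NDUFS or NDUFV followed by a number, among the 58735 genes of the deposited tables, of which 19951 are protein-coding. NDUFA4 lies on 7p, NDUFB9 on 8q, and the other 36 on arms that were not targeted. Per textbook assignments, 6 of the 38 encode core subunits, 9 accessory subunits of the peripheral arm, 9 of the proximal membrane arm and 11 of the distal membrane arm. The remaining 3 match by name only. NDUFA4 is counted today as a subunit of complex IV, NDUFA4L2 is its hypoxia-induced paralog, and NDUFC2-KCTD14 is a readthrough transcript. With all libraries and the filter on low counts, NDUFC2-KCTD14 was too low to be tested in any comparison.

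Complex I (NADH:ubiquinone oxidoreductase) takes electrons from NADH in the mitochondrial matrix, passes them to ubiquinone and pumps protons across the inner membrane. Its peripheral arm holds the flavin, the iron-sulphur clusters and the quinone site. Its membrane arm holds the proton channels, whose core subunits are encoded by mitochondrial DNA, while all other subunits come from nuclear genes scattered over many chromosomes. A cell that loses 1 copy of an arm therefore changes the dose of a few subunits and leaves the dose of the rest as it was.

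The 62 libraries fall into 16 groups. A2058 (melanoma, with gains of 1q, 7p and 8q) has 4 WT libraries, 4 of 1q-loss (2 clones), 6 of 7p-loss (3 clones) and 4 of 8q-loss (2 clones). HCT116 (colorectal cancer, 8q gain) has 2 WT libraries and 4 of 8q-loss (2 clones). AGS (gastric cancer, 1q gain) has 1 WT library, 2 TK+ libraries and 5 of 1q-loss (5 clones). A2780 (ovarian cancer, 1q gain) has 2 WT, 2 TK+ and 6 1q-loss libraries (3 clones). MCF10A (non-cancerous breast epithelium, with an extra copy of 1q) has 2 WT and 8 1q-loss libraries (4 clones), and the same numbers with oncogenic hRASV12 expressed (hRas). Loss clones are single-cell derived and were made by ReDACT, genome engineering that removes the extra copy of an arm. The versions used were CO (CRISPR only) in A2058, HCT116, AGS clone 11 and clone 4 of both MCF10A series, NS (negative selection of an integrated TK cassette) in the other AGS clones and in A2780, and TR (telomere replacement) in the other MCF10A clones. TK+ libraries carry the TK cassette and keep the gain. WT libraries are not described as single-cell clones, so isolation of a clone and loss of the arm cannot be told apart where WT is the only control.

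Libraries held 15042068 to 30984036 counted reads, of which mitochondrially encoded genes took 1.25% to 10.7%. Lineage markers matched the labels in AGS, HCT116 and MCF10A in part (CDX2 in the gastrointestinal lines, KRT5 in MCF10A). CDX1 was at or near 0 everywhere, VIL1 and LGALS4 were near 0 in HCT116, and PAX8 and WT1 were at or near 0 in A2780. A2058 WT carried the melanocyte lineage list (SOX10, MITF, PMEL, MLANA and TYR) at a summed 1656 to 2687 CPM (read counts scaled to library size). EPCAM and KRT8 were at 721.6 and 2578 CPM in AGS WT and at 78.0 and 3103 in HCT116 WT. They were also at 104.4 and 185.1 CPM in MCF10A WT. CDH1 was at 4.1 CPM in HCT116 WT, and KRT17 of the basal breast list at 266 in AGS WT.

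NDUFA4, on 7p at chr7:10931951-10940256 on the minus strand (GRCh38), shares no exon base with another gene and was lower in 2 of the 3 clones with 7p loss. WT libraries of A2058 held 115.4, 121.8, 129.0 and 145.9 CPM. Clone 2 held 73.7 and 80.5 and clone 3 held 72.6 and 78.7, below all of them, whereas clone 1 held 105.5 and 116.1 and overlapped the WT range. The log2 fold change was -0.54 (SE 0.14, adjusted p = 0.13, edgeR quasi-likelihood test) and was not called, while without clone 1 it was -0.74 (adjusted p = 0.00037). DESeq2 called it on all libraries (adjusted p = 0.022). Over the alternatives the adjusted p ran from 0.00037 to 0.94.

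NDUFB9, an accessory subunit of the distal membrane arm on 8q at chr8:124539101-124580648 on the plus strand, was below every control library in all 8 libraries with 8q loss, and was called in neither line. A2058 WT held 145.4, 165.3, 165.5 and 192.6 CPM and the 8q-loss libraries 95.7, 108.2, 136.8 and 139.2, or -0.48 in log2 fold change (SE 0.13, adjusted p = 0.12). DESeq2 called it there (adjusted p = 0.025), as did the fit with no filter on low counts (adjusted p = 0.037), and over the alternatives the adjusted p ran from 0.025 to 0.48. HCT116 WT held 350.6 and 489.3 CPM and the 8q-loss libraries 222.3, 243.1, 320.5 and 332.5, or -0.59 in log2 fold change (SE 0.27, adjusted p = 0.92). This value was -0.32 without WT replicate 1 and -0.36 without clone 2. The difference of this change between the lines was not called, as for the other 36 members tested, and of all genes tested for it 0.514% were called. Exons of NDUFB9 share 21% of their bases with the antisense genes MTSS1 and TATDN1. Whether the authors' counting used the strand is not given in the sources used here, so reads of these genes may not be separable from those of NDUFB9.

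**Figure D1:**
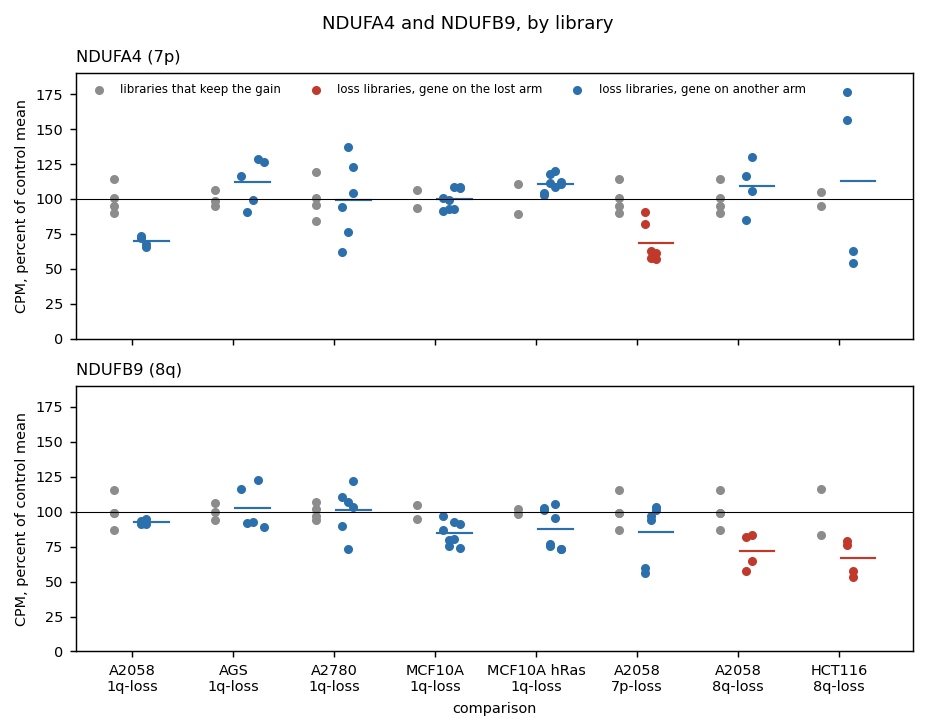
CPM of NDUFA4 and NDUFB9 in each library as a percentage of the mean of that comparison's control libraries, with 1 panel per gene and 1 column per comparison; grey dots are control libraries, red dots loss libraries where the gene lies on the lost arm, blue dots loss libraries where it does not, and short lines are means. Red dots of NDUFB9 lie below all grey dots in both comparisons, and those of NDUFA4 from 7p-loss clone 1 (105.5 and 116.1 CPM) reach the grey dots.

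Both genes sat within the range of their arm. NDUFA4 ranked 119 of 252 tested 7p genes (arm median -0.51). NDUFB9 ranked 200 of 342 tested 8q genes in A2058 (-0.53) and 158 of 328 in HCT116 (-0.57). The NDUFA4 clone that overlapped WT still had lower neighbours: the 26 expressed genes within 5 Mb of NDUFA4 had a median log2 change of -0.43 in 7p-loss clone 1, against -0.56 in clone 2 and -0.59 in clone 3, and NDUFA4 itself changed by -0.20, -0.73 and -0.75 in these clones.

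A drop of an arm member was also seen without loss of its arm. NDUFA4 was called lower in A2058 1q-loss, which keeps 7p, with 83.8, 86.6, 92.2 and 93.7 CPM, all below the WT range (log2 fold change -0.53, SE 0.078, adjusted p = 0.00027). Its 26 neighbours within 5 Mb had median changes of 0.077 and 0.086 in the 2 clones. In 7p-loss clone 1, NDUFB9 held 94.1 and 100.2 CPM, outside the WT range and outside those of clones 2 and 3 (log2 difference from WT of -0.78). The 27 neighbours of NDUFB9 had a median of 0.021 in that clone. In HCT116 8q-loss, clone 1 held 346.9 CPM or more of NDUFA4 and clone 2 held 139.9 and 120.4, on either side of WT (232.4 and 211.4). The 7p arm as a whole lay 0.40 above the other arms in clone 1, and the cause of the values in clone 2, where NDUFA4's neighbours had a median of 0.068, was not tested.

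Both genes also had negative means relative to the rest of the set. Log2 CPM of NDUFB9 minus the mean log2 CPM of the tested members outside 8q, set to 0 in the controls, was -0.49 ± 0.13 (SD, n = 4) in A2058 and -0.54 ± 0.087 (n = 4) in HCT116. In both, the highest loss library lay below the lowest control. For NDUFA4 in 7p-loss the value was -0.40 ± 0.29 (n = 6), from -0.72 to -0.018, and both libraries of clone 1 lay inside the control range. These are descriptions without a test, and libraries of 1 clone are not independent.

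Nearly all calls came from A2058 1q-loss. There 20 of 37 tested members were called, 17 lower and 3 higher. This comparison called 49.6% of all genes tested, against 54.1% of the members. By direction, 24.3% of all genes were lower and 25.3% higher, against 45.9% and 8.11% of the members. Their median log2 fold change was -0.24 (29 of 37 negative), beside -0.00057 over all genes tested. Of the members described, the only other edgeR call in a loss comparison, with all libraries and the filter on low counts, was NDUFC1 in A2780 (1 of 37 called, with 11.8% of all genes). None were called with edgeR in AGS (0 of 36, with 7.55% of all genes), in MCF10A (0 of 36, with 2.04%), in MCF10A hRas (0 of 37, with 0.214%), in A2058 7p-loss (0 of 37, with 0.908%), in A2058 8q-loss (0 of 37, with 2.03%) or in HCT116 8q-loss (0 of 36, with 0.14%). At an unadjusted p under 0.05 edgeR had 5 members in AGS (13.9%, with 25.8% of all genes), 3 in MCF10A (8.33%, with 11.8%), 5 in MCF10A hRas (13.5%, with 14.3%), 2 in A2058 8q-loss (5.41%, with 13%) and 0 in HCT116 (with 5.45%). Among the comparisons without a call, only A2058 7p-loss had a larger share of members than of all genes, with 10 members, all negative (27.0%, with 13% of all genes). DESeq2 called 2 members in AGS (5.56%, with 14.9% of all genes), 1 in A2058 7p-loss (NDUFA4; 2.7%, with 3.33%) and 1 in 8q-loss (NDUFB9; 2.7%, with 4.52%), and 0 in MCF10A, MCF10A hRas and HCT116. Each of these shares lay below that of all genes. Without clone 11 the AGS count was 3, all higher (8.33%, with 11.9% of all genes). Medians over the tested members were 0.093 in AGS, -0.0061 in A2780, -0.065 in MCF10A, 0.039 in MCF10A hRas, -0.16 in A2058 7p-loss (32 of 37 negative), -0.0082 in A2058 8q-loss and -0.022 in HCT116, while the medians of all genes lay between -0.00057 and 0.033. Without clone 2, 13 members were called in A2058 1q-loss, 12 of them lower (32.4%, with 20.5% of all genes). Its 4 loss libraries come from 2 clones and were fitted as separate libraries. With the libraries of each clone summed, 14 of 37 members were called (37.8%, with 39.8% of all genes). Of these 13 were lower (35.1% of members, with 19.3% of all genes). The 3 A2058 comparisons use the same 4 WT libraries, so they are not independent of each other. WT replicates 3 and 4 stood above 1 and 2 in several members, as given below.

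**Figure D2:**
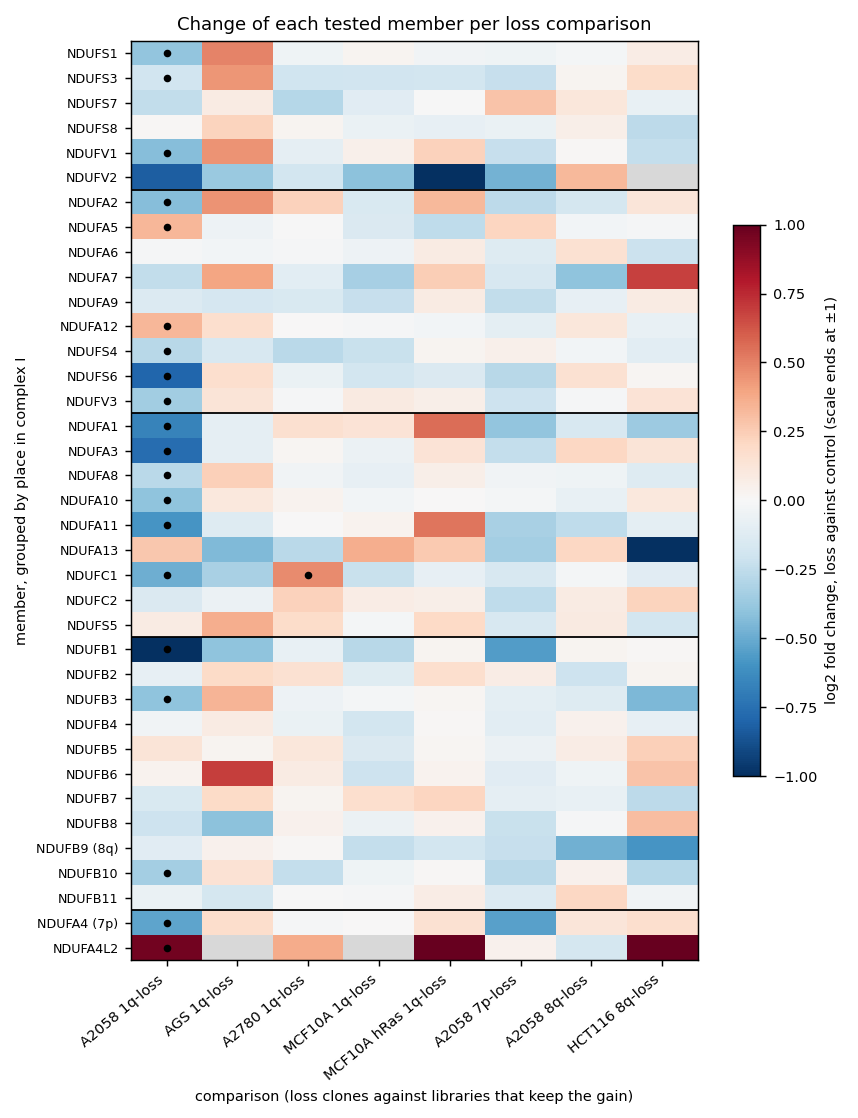
Log2 fold change of each of the 37 members tested in at least 1 comparison (rows, grouped by place in complex I from core subunits at the top to the distal membrane arm, with NDUFA4 and NDUFA4L2 last) in the 8 loss comparisons (columns); blue is lower and red higher in the loss libraries, black dots mark an adjusted p under 0.05 and grey cells were not tested. A2058 1q-loss has 20 dots, and the other columns hold 1, NDUFC1 in A2780.

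By role in A2058 1q-loss, where 24.3% of all genes were lower, 3 of 6 core subunits fell and none rose. They were NDUFS1 (the large iron-sulphur subunit; -0.39, SE 0.073, adjusted p = 0.0012), NDUFV1 (which binds FMN and NADH; -0.42, SE 0.071, adjusted p = 0.00058) and NDUFS3 (-0.19, SE 0.065, adjusted p = 0.030). NDUFS1 was at 205.8 to 245.0 CPM in WT and 155.2 to 177.4 after loss, and NDUFV1 at 153.6 to 183.6 and 114.9 to 128.2, with no overlap for either. Of 9 accessory subunits of the peripheral arm, 4 fell (NDUFS6, NDUFA2, NDUFV3 and NDUFS4) and 2 rose. The 2 that rose were NDUFA5 (0.33, SE 0.10, adjusted p = 0.022) and NDUFA12 (0.34, SE 0.086, adjusted p = 0.0079), which sits where the assembly factor NDUFAF2 sits in the unfinished complex. NDUFA12 was at 26.4 to 32.3 CPM in WT and 35.1 to 40.4 after loss. Of 9 subunits of the proximal membrane arm 6 fell (NDUFA1, NDUFA3, NDUFA8, NDUFA10, NDUFA11 and NDUFC1), and of 11 of the distal membrane arm 3 fell (NDUFB1, NDUFB3 and NDUFB10). No subunit of the membrane arm rose. Against WT 1 and 2 alone, lower calls were 3 of 6 core (NDUFS7 in place of NDUFS3), 1 of 9 peripheral, 3 of 9 proximal and 1 of 11 distal subunits, with 19.5% of all genes lower, and NDUFS5 of the proximal membrane arm was called higher.

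The 5 members with the largest called change in A2058 1q-loss were NDUFB1, NDUFA4L2, NDUFS6, NDUFA3 and NDUFA1. NDUFB1, a small distal membrane subunit, was at 18.8, 25.7, 41.7 and 38.4 CPM in WT replicates 1 to 4 and at 14.6, 14.7, 15.8 and 16.7 after loss (log2 fold change -1.01, SE 0.22, adjusted p = 0.0028). NDUFS6, the zinc-binding subunit added late in assembly, was at 71.3, 87.4, 137.1 and 108.2 CPM in WT and at 56.2, 57.6, 59.6 and 60.3 after loss (-0.79, SE 0.16, adjusted p = 0.0023). In both genes the loss libraries lay close together below a wide WT range. NDUFA3 was at 17.2, 19.2, 26.3 and 26.7 CPM in WT and 12 to 14.7 after loss (-0.76, SE 0.15, adjusted p = 0.0018). NDUFA1, an X-linked subunit needed to assemble the membrane arm, was at 27.5, 28.1, 38.8 and 41.1 CPM in WT and 15.7 to 26.4 after loss (-0.67, SE 0.18, adjusted p = 0.0092). Exons of NDUFA1 share 44.5% of their bases with the antisense gene RNF113A. NDUFA4L2 was higher (0.96, SE 0.32, adjusted p = 0.028) but at 1.2 CPM or less in every A2058 library of this comparison, from 6 to 25 counts, and 12 of 18 alternative fits lost the call.

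WT replicates 3 and 4 of A2058 stood above replicates 1 and 2 in several of these genes. Against WT 1 and 2 alone 11 of 37 members were called (29.7%, with 40.4% of all genes), 9 of them lower (24.3%, with 19.5% of all genes). Against WT 3 and 4 alone 16 were called (43.2%, with 39.8% of all genes), 15 of them lower (40.5%, with 19.3%). The share of lower members thus stood near that of all genes with the first pair of controls and above it with the second. NDUFB1 changed by -0.53 and -1.38 in the 2 fits, NDUFS6 by -0.45 and -1.07, NDUFA3 by -0.47 and -1.01, NDUFC1 by -0.28 and -0.68, and NDUFA1 by -0.39 (adjusted p = 0.13, from 0.00072 to 0.16 over the alternatives) and -0.91. Members called in all 3 fits were NDUFA3, NDUFA4, NDUFA10, NDUFB1, NDUFC1, NDUFS1, NDUFS6 and NDUFV1, which is 8 of the 20. In 7p-loss NDUFB1 was at 18.2 to 24.8 CPM, where WT 1 and 2 held 18.8 and 25.7 and WT 3 and 4 more. NDUFS6 was at 72.0 to 91.4 CPM there, where WT 1 and 2 held 71.3 and 87.4 and WT 3 and 4 more. NDUFA4, on the lost arm, lay below all WT libraries in 7p-loss clones 2 and 3. How far the negative values of members in 7p-loss rest on WT 3 and 4 was not tested. The labels do not say how the 2 pairs of WT libraries differ.

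Lineage genes moved with this comparison. The melanocyte list fell from a summed 1656 to 2687 CPM in WT to 43.8 to 134.3 in A2058 1q-loss, with 5 of 5 genes called lower and none at 0 in every library, while it was 905.7 to 2869 in 7p-loss (1 of 5 called lower) and 1758 to 2623 in 8q-loss (2 of 5). A list of genes that a pure culture should lack (PTPRC, CD3E, PECAM1 and COL1A1) rose from 15.8 to 22.5 CPM to 114.8 to 258.6, where COL1A1 reached 246 CPM. PTPRC reached at most 0.39 CPM and CD3E at most 0.048 in any A2058 library, while PECAM1 reached 17.8. Other marker lists also stood higher, the epithelial list at 166.5 to 211.9 CPM against 80.3 to 106.5 in WT (2 of 2 tested genes called higher), the basal breast list at 51.1 to 265.7 against 0.82 to 2.8 (1 of 1, with KRT17 reaching 255.2 CPM) and the ovarian list at 16 to 19.8 against 7.1 to 8.8 (2 of 2). The gastrointestinal list was at 0 after loss and at most 0.051 CPM in WT. The part of these changes in the lower members was not tested. In bulk RNA, fewer cells with a transcript and less of it per cell cannot be told apart.

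Lower calls were also more frequent than higher ones among the other oxidative phosphorylation genes of A2058 1q-loss, where 24.3% of all genes were lower and 25.3% higher. They were 6 of 9 genes of complex III, 7 of 11 of complex IV (1 higher, COX7A2L), 8 of 15 of complex V and 2 of 4 of complex II (SDHC and SDHA, with SDHD higher). List medians were -0.27, -0.25, -0.23 and -0.29. Of 16 complex I assembly factors 6 were lower, among them NDUFAF3 (-0.72, SE 0.14, adjusted p = 0.0018) and ACAD9 (-0.43, SE 0.091, adjusted p = 0.0026), and 1 was higher, TIMMDC1 (0.40, SE 0.056, adjusted p = 0.0002). Of the 7 mitochondrially encoded subunits MT-ND1 (-0.51) and MT-ND3 (-0.59) were lower, a share near that of all genes. Among 10 regulators of mitochondrial gene expression PPARGC1A, the PGC-1alpha coactivator, fell from 24.1 to 30.3 CPM to 6.9 to 10.4 (-1.67, SE 0.15, adjusted p = 7.7e-06), MYC was lower (-0.48) and TFAM, which coats mitochondrial DNA, was higher (0.23). PPARGC1A was also called lower in AGS 1q-loss, from 2.9 to 7.8 CPM in the controls to 0 to 0.53, where edgeR called none of the members described and DESeq2 called 2, both higher. The A2058 calls of these lists are against all WT libraries and were not counted against each pair of them. They rest on the same libraries as the calls of the members. These lists were written with earlier results of these data known.

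Genes of these lists that lie on a lost arm had negative log2 fold changes in every comparison that lost it. SDHC, the 1q-encoded membrane anchor of complex II, was called lower in A2058 (-0.69, SE 0.060, adjusted p = 7.0e-06) and MCF10A (-0.41, SE 0.077, adjusted p = 0.011), and was at -0.34 in AGS, -0.28 in A2780 and -0.17 in MCF10A hRas without a call. COA1, a 7p assembly factor, fell in 7p-loss from 76.8 to 86.4 CPM to 51.0 to 59.1 (-0.55, SE 0.065, adjusted p = 0.0021). On 8q, cytochrome c1 (CYC1) of complex III fell in A2058 8q-loss from 265.6 to 289.2 CPM to 148.1 to 195.7 (-0.64, SE 0.091, adjusted p = 0.0067), as did MYC (-0.85, SE 0.099, adjusted p = 0.0027). UQCRB (-0.63), COX6C (-0.39) and NDUFAF6 (-0.26) were not called there, and none of the 5 was called in HCT116, where they lay between -0.97 and -0.32. The mitochondrially encoded ND genes had medians of 0.67 in MCF10A hRas 1q-loss, 0.49 in AGS and -0.52 in HCT116, with none called.

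Some members differed between lines in their change with 1q loss, and whether their share exceeded that of all genes varied with the A2058 controls used. Setting the A2058 change against the AGS change in 1 model with an interaction term, 10 of 37 members were called (27.0%), all lower in A2058, where the model called 24.2% of all genes (11.8% lower). They were NDUFS1 (difference -0.88, SE 0.15, adjusted p = 0.00053), NDUFV1 (-0.86), NDUFA4 (-0.69), NDUFS6 (-0.95), NDUFA10 (-0.50), NDUFB10 (-0.48), NDUFV3 (-0.47), NDUFA8 (-0.50), NDUFB3 (-0.73) and NDUFA3 (-0.67). NDUFS1 in AGS was at 62.8 to 70.8 CPM in the controls and 74.2 to 109.2 in the loss clones (0.50, SE 0.13, adjusted p = 0.052), the reverse order of A2058. Against WT 1 and 2 of A2058 alone, an alternative chosen after seeing the data, 5 remained (NDUFA4, NDUFA10, NDUFS1, NDUFS6 and NDUFV1), and the same 5 were called with the libraries of each clone summed (13.5% of members each time, all lower, with 17.1% and 17.9% of all genes and 8.49% and 7.86% lower). Against WT 3 and 4 alone, 12 were called (32.4%, with 18.3% of all genes), 11 of them lower (29.7%, with 9.33%). DESeq2 on all libraries called 13, all lower (35.1%, with 29.3% of all genes and 15.2% lower). Against MCF10A the model called 6 of 37 members (16.2%), fewer by share than the 21.4% of all genes, with 13.5% of members and 10.3% of all genes lower. NDUFS1 (-0.42), NDUFV1 (-0.48), NDUFA4 (-0.53), NDUFA10 (-0.38) and NDUFV3 (-0.45) were lower in A2058 and NDUFA5 was higher (0.47, adjusted p = 0.0496). With WT 1 and 2 alone 3 remained (NDUFA4, NDUFA10 and NDUFS1; 8.11%, with 17% of all genes), with WT 3 and 4 alone 12 were called (32.4%, with 18.1%), and DESeq2 called 10 (27.0%, with 24.6%). The members' share thus lay below that of all genes with the first pair of controls and above it with the second. A2780 has another annotation and was not put in such a model. The same A2058 libraries enter both tests.

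**Figure D3:**
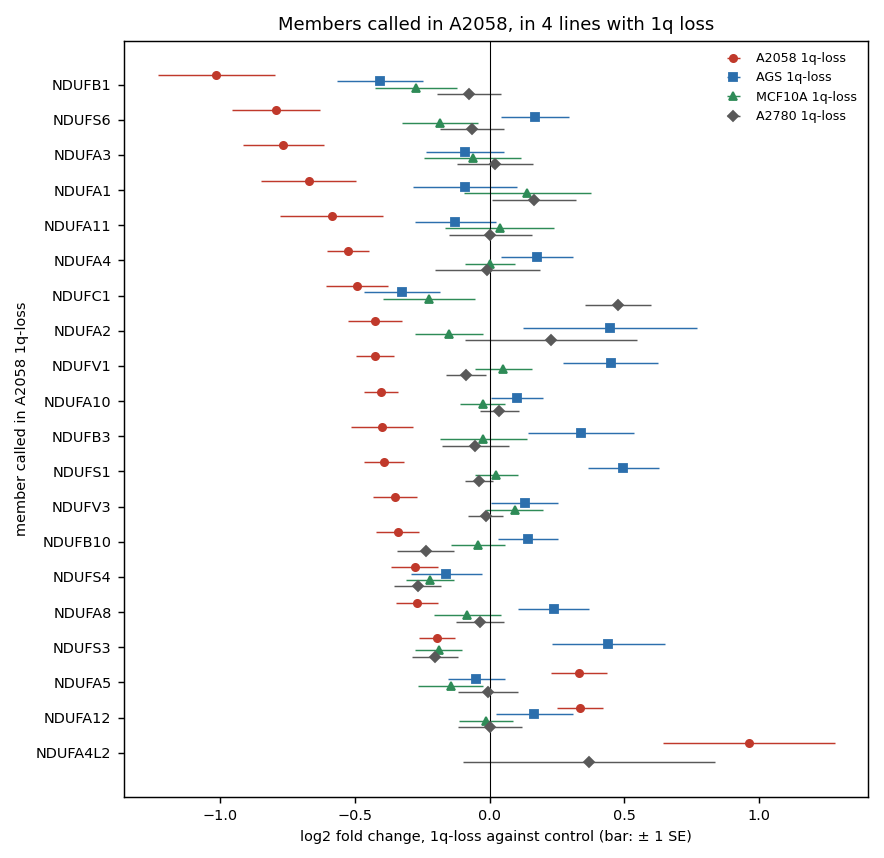
Log2 fold change with 1q loss (dot or symbol, bar ± 1 SE of the edgeR fit) of the 20 members called in A2058, in A2058, AGS, MCF10A and A2780. The red A2058 dots of most members stand apart from symbols near 0 or above; A2058 chose the rows, so the red dots carry no test.

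The 17 members that fell in A2058 1q-loss had mixed signs in the other lines. In AGS 6 were negative and 11 positive (median 0.14), in A2780 11 and 6 (median -0.036), in MCF10A 11 and 6 (median -0.042), in MCF10A hRas 4 and 13 (median 0.031), and in HCT116 8q-loss 8 and 9 (median 0.0088). In the other A2058 comparisons, which share the 4 WT libraries with 1q-loss, 16 were negative and 1 positive in 7p-loss (median -0.23) and 10 and 7 in 8q-loss (median -0.019). Among these 17 members in the other 7 loss comparisons, edgeR with all libraries called only NDUFC1 in A2780, which was higher (0.47, SE 0.12, adjusted p = 0.029). DESeq2 also called 3 others of the 17: NDUFS1 higher in AGS, NDUFS4 lower in A2780, and NDUFA4, which lies on the lost arm there, lower in A2058 7p-loss. Fits of edgeR on part of the libraries called others, among them NDUFA4 and NDUFB1, both lower in A2058 7p-loss. NDUFC1, a small proximal membrane subunit, was at 24.5, 26.8, 28.5 and 33.0 CPM in the A2780 controls and at 32.2, 33.3, 39.1, 40.9, 42.4 and 47.7 after loss, with an overlap of 1 library. In A2058 it fell (-0.49, SE 0.11, adjusted p = 0.0048), from 31.0 to 45.7 CPM to 26.0 to 28.3. The call in A2780 was lost in 6 of 14 alternative fits, including that against WT alone (adjusted p = 0.078, from 0.0033 to 0.090 over the alternatives), without either WT replicate, without TK+ replicate 2, without clone 2 and with clones summed.

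**Figure D4:**
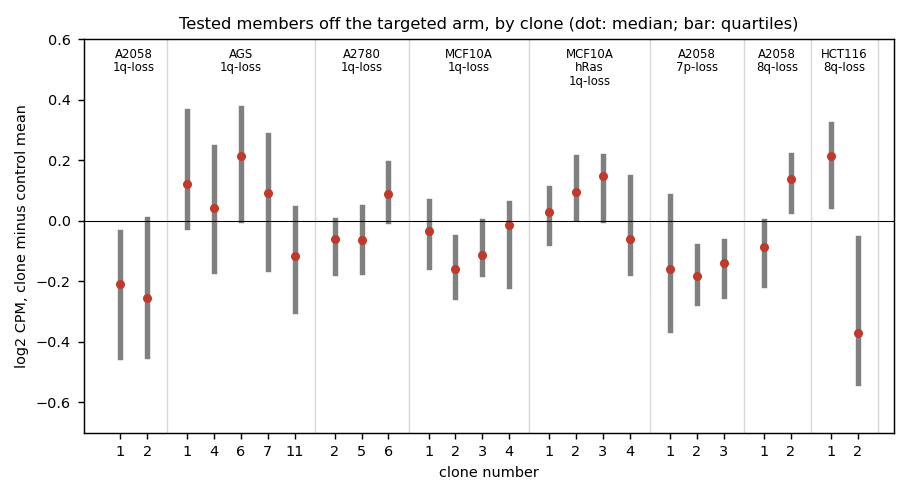
Median (dot) and quartiles (bar) over the tested members off the lost arm of the log2 CPM of each clone minus the control mean, for the clones of the 8 loss comparisons. Both A2058 1q-loss clones and all 3 7p-loss clones lie below 0 (-0.14 to -0.25), and the 2 clones of A2058 8q-loss and of HCT116 lie on either side of it. All A2058 clones are set against the same WT libraries.

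Clones of 1 group could differ more than groups did. In HCT116 8q-loss, clone 1 had a median of 0.22 over the members off 8q (6 of 35 negative) and clone 2 of -0.37 (29 of 35 negative). In A2058 8q-loss the medians were -0.087 in clone 1 (27 of 36 negative) and 0.14 in clone 2 (7 of 36 negative). AGS clones ranged from -0.12 (clone 11, the CO clone) to 0.21 (clone 6), MCF10A clones from -0.16 to -0.014, MCF10A hRas clones from -0.059 to 0.15 and A2780 clones from -0.062 to 0.089. After group means were removed, the mean correlation between pairs of members was 0.312 over the 18 A2058 libraries, 0.57 over 10 of A2780, 0.46 over 8 of AGS, 0.415 over 6 of HCT116 and 0.293 over 20 of MCF10A, beside 0.0042 to 0.026 over all gene pairs. These correlations are descriptions over libraries that share clones, and differences between clones of a group remain in them. They use 29 (A2780) to 33 (HCT116) members per line. Other sets of genes were not compared, so the values are not shown to be particular to complex I.

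Some members lay on other arms whose genes were shifted in a clone. Among 618 pairs of a clone and a non-target arm that holds members, 13 had a median change of the arm's genes past 0.2 (log2) from that of the other arms. Of these, 12 hold tested members, with 20 values, of which 17 had the sign of their arm and 3 the other. Whether the arm's shift accounts for a member's value was not tested. In AGS clones 1 and 4 the 11p shift was 0.39 and 0.45, with NDUFS3 at 0.74 and 0.89, and the 11q shift 0.40 and 0.55, with NDUFV1 at 0.64 and 0.80 and NDUFS8 (a core iron-sulphur subunit) at 0.37 and 0.44. Without these 2 clones, an alternative chosen after seeing the data, still no AGS member was called (with 8.01% of all genes) and 12 members differed between A2058 and AGS (32.4%, with 27.7% of all genes), all 10 of the first test among them. In clone 4 of MCF10A and of MCF10A hRas 19q stood at 0.42 and 0.57, and NDUFA3 on 19q at 0.24 and 0.46. In HCT116 clone 2 19p stood at -0.28, with the 19p genes NDUFB7 at -0.95, NDUFA11 at -1.08, NDUFA13 at -1.92 and NDUFS7 at -0.49, but NDUFA7 at 0.51. In the same clone 5p stood at 0.21 and NDUFS6 on 5p at -0.35. The third value against its arm was that of NDUFV2 in A2058 7p-loss clone 1, at -0.94 with 18p at 0.24.

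With all libraries, no member was called for the TK cassette or for hRASV12. A fit with a replicate block called NDUFS8 higher with TK+ and NDUFA2 lower with hRas, and one with no filter on low counts called NDUFA2 lower with hRas. In A2780 TK+ against WT, 0 of 36 members were called with edgeR (1 at an unadjusted p under 0.05, with 21.6% of all genes, NDUFS8, which was higher at 0.29 with an adjusted p of 0.069; DESeq2 called 0), where 11.2% of all genes were called. Leaving out a replicate here leaves 1 library in its group, so calls of such fits are not given. In MCF10A hRas WT against WT, 0 of 36 were called with edgeR (2 at an unadjusted p under 0.05, with 14.2% of all genes, NDUFA2 and NDUFA9, both lower; DESeq2 called 0), where 1.62% of all genes were called. For the interaction of 1q loss with hRas 0 of 37 members and 0.0% of all 16492 genes tested were called with edgeR (1 member at an unadjusted p under 0.05, or 2.7%, with 2.22% of all genes; DESeq2 called 0).

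Members of the same complex differed widely in TPM. Levels are given as TPM, which scales counts by gene length and then by library, in the WT libraries of each line. Gene lengths in the GRCh38 tables take in all annotated exons and ran from 531 bases (NDUFB7) to 12268 (NDUFS1). How much of the differences in TPM comes from these lengths was not tested. The highest by median over lines were NDUFS5 (751 TPM), a small intermembrane-space subunit, NDUFB7 (345) and NDUFB10 (295). The lowest of those detected were NDUFA4L2 (0.28), NDUFV2 (1.17) and NDUFA7 (1.36). Annotated lengths, in the same order, are 548, 531 and 1070 bases for the highest and 2806, 2711 and 1413 for the lowest. NDUFV2 is a core subunit with 1 copy per complex, but its annotated gene had 0 to 63 counts in the 52 libraries with GRCh38 tables while its processed pseudogene NDUFV2P1 had 4 to 35. Among 17 members with a pseudogene named after them, NDUFV2 was the only one whose pseudogene had the higher median count (19 against 15). NDUFA7 and NDUFA13 had at most 43 and 203 counts and share 33.5% and 21% of their exon bases with other genes. Values of NDUFV2, NDUFA7 and NDUFA13 are therefore uncertain.

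NDUFA4 was at 164 ± 16 TPM in HCT116 (SD, n = 2), 136 ± 12 in A2058 (n = 4), 114 ± 11 in MCF10A (n = 2), 80.7 in AGS (n = 1) and 72.2 ± 5.8 in A2780 (n = 2). NDUFB9 was at 266 ± 19 TPM in HCT116, 154 ± 15 in A2058, 106 ± 8.3 in MCF10A, 103 ± 1.0 in A2780 and 42.4 in AGS. The NDUFB9 ranges of MCF10A and A2780 overlapped, as did no other neighbouring pair with replicates for these 2 genes. Of 37 members HCT116 had the highest level in 16 and the lowest in 7, and A2780 the highest in 11 and the lowest in 17. The median member was at 65.8 ± 3.9 TPM in A2058 (n = 4), 72.5 ± 6.5 in HCT116 (n = 2), 64.7 ± 5.1 in MCF10A (n = 2), 57 ± 5.0 in A2780 (n = 2) and 45.9 in AGS (n = 1). Lines were prepared separately and A2780 was counted on another annotation, so levels between lines were not tested.

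**Figure D5:**
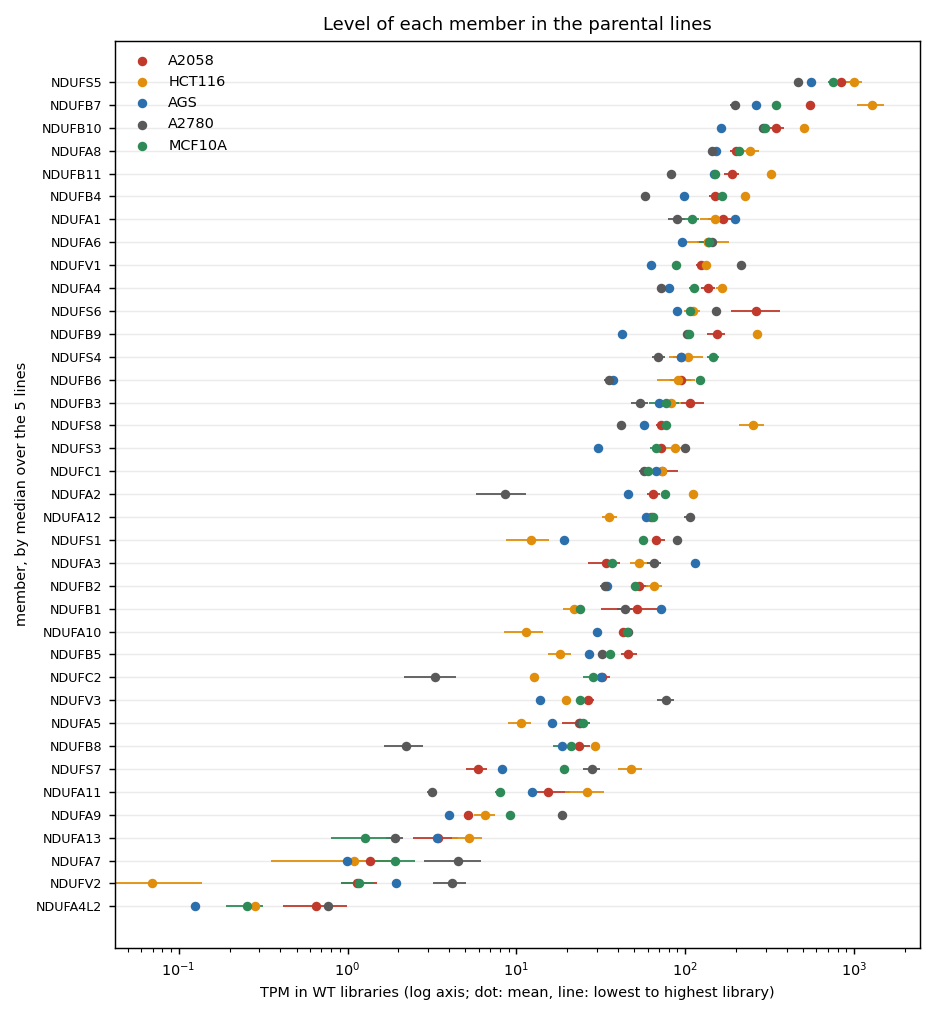
Level in TPM (log axis) of each member with a level above 0 in most lines, ordered by its median over lines; dots are means over the WT libraries of a line and horizontal lines run from the lowest to the highest library, and a line that reaches 0 leaves the axis. Most members lie between 10 and 1000 TPM, and NDUFV2, NDUFA7 and NDUFA4L2 lie lowest.

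Promoter sequences were available for 32 of the 38 members (RefSeq, GRCh38.p14), NDUFA4 and NDUFB9 not among them. They were searched on both strands, from 250 bases before the start to 50 after it, for letters bound by regulators of respiratory genes. The NRF1 letters GCGCATGC were in 5 of 32 (15.6%) and in 3.05% of all 35116 promoters, the YY1 letters AAGATGGC in 6 (18.8%) and 2.89%, and the GABPA letters CCGGAAGT in 2 (6.25%) and 4.14%. Each member enters with 1 promoter, whereas the 35116 are all entries, more than the 19951 protein-coding genes. The shares of members and of all promoters therefore come from unlike sets. In the members no match overlapped one of another motif, though in NDUFA8 and NDUFB4 NRF1 matches on both strands overlapped. All 6 YY1 matches lay after the start, on the plus strand of the gene, and so outside the stretches printed. Of the 32 promoters 21 held none of the 3 motifs. Among the 16 matched members that fell in A2058 1q-loss, 2 held NRF1 letters, 1 GABPA and 2 YY1, and among the 13 tested but not called, 3, 1 and 4. The 250 bases before the start are shown for 3 members that fell and 1 that rose, named above for their change, with motif matches in capitals.
NDUFB1 (fell; chr14:92121707-92121956, minus strand, no match): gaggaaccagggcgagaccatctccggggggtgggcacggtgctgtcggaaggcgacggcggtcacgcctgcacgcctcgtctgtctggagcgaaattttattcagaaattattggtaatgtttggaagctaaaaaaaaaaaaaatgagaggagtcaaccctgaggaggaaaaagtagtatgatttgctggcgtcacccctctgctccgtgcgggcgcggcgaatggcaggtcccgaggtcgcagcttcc
NDUFS6 (fell; chr5:1801157-1801406, plus strand, NRF1 match): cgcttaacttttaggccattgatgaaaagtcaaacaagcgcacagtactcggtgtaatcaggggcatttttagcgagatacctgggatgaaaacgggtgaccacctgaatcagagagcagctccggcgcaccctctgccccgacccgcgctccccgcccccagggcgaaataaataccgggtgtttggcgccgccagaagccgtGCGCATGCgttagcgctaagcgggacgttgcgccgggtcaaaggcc
NDUFS1 (fell; chr2:206159445-206159694, minus strand, GABPA match read from the other strand): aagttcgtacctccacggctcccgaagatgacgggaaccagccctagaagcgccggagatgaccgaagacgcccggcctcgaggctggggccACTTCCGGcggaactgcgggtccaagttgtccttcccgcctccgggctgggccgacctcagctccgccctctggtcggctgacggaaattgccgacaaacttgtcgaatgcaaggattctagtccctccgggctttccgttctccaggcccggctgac
NDUFA12 (rose; chr12:95003698-95003947, minus strand, no match): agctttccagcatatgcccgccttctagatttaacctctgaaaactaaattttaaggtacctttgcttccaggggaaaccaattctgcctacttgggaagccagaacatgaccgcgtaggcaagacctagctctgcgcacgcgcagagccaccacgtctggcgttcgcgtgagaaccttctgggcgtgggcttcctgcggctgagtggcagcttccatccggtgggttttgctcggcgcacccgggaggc
A match is a description of letters, and a promoter without one says only that these letters are not in that window.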

How the data were processed

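RNA-seq counts per gene were deposited by the authors as 1 table per library, as raw counts without normalisation. HISAT2 2.0.5 and featureCounts 1.5.0-p3 are named in the submitters' processing notes, and poly-T selection per the labels' protocols. Gene coordinates are GRCh38 (58724 of 58735 genes as in GENCODE 29, all 38 members described among them), but GRCh37 in the A2780 tables (48162 genes), where members were matched by Ensembl ID. Genes were filtered with filterByExpr (minimum count 10, minimum total 15), TMM factors computed, and edgeR 4.0.16 (R 4.3.3) fitted to each comparison's own libraries, with its quasi-likelihood F-test. P-values were adjusted by Benjamini-Hochberg over all genes tested; called means below 0.05 after adjustment. SE is the log2 fold change over the square root of F. Controls were WT, or WT and TK+ together in AGS and A2780. Printed CPM use 1 TMM scaling per line, and log2 CPM a prior count of 2. Groups rest on the labels, and p-values measure the spread between libraries, which may be technical.

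Off-arm members are named as the up to 5 called ones with the largest absolute log2 fold change and 1 direction in every clone. By name 39 genes match, and 1 of them is not reported here. Lists, members and tests were chosen with earlier results of these data known. Equal replicate numbers did not pair libraries (correlations of deviations -0.142 to 0.281). Alternatives were DESeq2 1.42.0, RLE factors, TMM off the arm, no filter, clones summed, a replicate block, control subsets and leaving libraries or clones out. Fits were tested on simulated counts. Summaries were made in Python 3.11.15 with pandas 2.3.3, and plots with matplotlib 3.10.9.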

Additional observations from a re-analysis of the deposited data

Results flagged for a closer look

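The change with 1q loss differed between A2058 and AGS in 10 of 37 members (27.0%, with 24.2% of all genes) and between A2058 and MCF10A in 6 (16.2%, with 21.4% of all genes), by the interaction test of edgeR given above. NDUFC1 was called with opposite signs in 2 lines, at -0.49 in A2058 and 0.47 in A2780, and this difference was not tested because the A2780 tables use another annotation. NDUFA4, NDUFB9 and the other members named by rule were also searched for a library far from the others of its group, in 29 combinations of a gene and a group of 4 or more libraries, and 0 were found, where chance alone gives about 1 in 20.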

How the results depend on the processing

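Across the alternatives 257 values kept their direction and side of the threshold or stayed within 1.5 times (counts) or 1 SD (values without a test), and 98 of these are counts that stayed at 0. Another 38 moved, 20 lost their call, 4 gained one and 0 reversed. With a replicate block, which equal numbers did not warrant as a pairing, the members called were 11 in A2058 1q-loss (29.7%, with 41.0% of all genes), 1 in A2780 TK+ (2.78%, with 15.4%) and 1 in MCF10A hRas WT (2.78%, with 4.85%). Controls WT 1 and 2 alone gave 11 in A2058 1q-loss (29.7%, with 40.4%), and WT 3 and 4 alone 1 in 7p-loss (NDUFB1; 2.7%, with 0.293%). DESeq2 gave 2 in AGS (5.56%, with 14.9%), 2 in A2780 (5.41%, with 17.1%), 1 in A2058 7p-loss (2.7%, with 3.33%) and 1 in A2058 8q-loss (2.7%, with 4.52%). No filter gave 1 in A2058 8q-loss (2.7%, with 1.6%) and 1 in MCF10A hRas WT (2.7%, with 2.49%). Summed clones gave 0 in A2780 (with 4.81% of all genes), as did WT controls alone (with 8.21%). The difference between A2058 and AGS held 5 members (13.5%) with summed clones (17.9% of all genes) and 5 with WT 1 and 2 (17.1%). That between A2058 and MCF10A held 10 with DESeq2 (27.0%, with 24.6% of all genes), 3 with WT 1 and 2 (8.11%, with 17%), and 12 with WT 3 and 4 (32.4%, with 18.1%). Settings on AGS clones and on the A2058 controls of these differences were chosen after seeing the data. Leaving out 1 library or clone gave 13 to 19 members in A2058 1q-loss (35.1% to 51.4%, with 41.2% to 46.9% of all genes), 0 to 3 in AGS (to 8.33%, with 0.626% to 11.9%), 0 to 2 in A2780 (to 5.41%, with 6.39% to 11.5%), 0 to 1 in A2058 7p-loss (to 2.7%, with 0.456% to 5.96%) and 0 to 6 in A2780 TK+ (to 16.2%, with 7.06% to 21.1%).

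Leaving out 1 library or clone gave -0.74 to -0.45 for NDUFA4 in 7p-loss. DESeq2 gave -0.54 for NDUFA4 and -0.48 for NDUFB9 in A2058, both called, and no filter -0.48 for NDUFB9. Median levels without mitochondrially encoded genes were 77.0 TPM in A2058, 98.7 in HCT116, 57.3 in AGS, 75.4 in A2780 and 70.0 in MCF10A. As RPKM they were 16.8, 31.1, 13, 22.1 and 16.9. The causes of these shifts were not tested. Low counts limit NDUFV2, NDUFA7, NDUFA13 and NDUFA4L2, and their cause was not tested.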
